A study of Danio rerio with 24 samples.

Results

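The genes described here copy chromosomal DNA and supply its building blocks: those that license and open replication origins, the polymerases with their sliding clamp and loader, the factors that bind single strands and join fragments, and the enzymes that make deoxynucleotides. They were taken from a list of 41 zebrafish genes, without the mcm helicase subunits, by the gene symbols of the array's annotation. A gene was kept where a probe set reached a log2 signal of 4 or more on at least 3 of 24 arrays, and where several did, the one of highest mean signal stands for it. This left 33 of the 41 genes, out of 6451 genes that passed the same filter. No probe set was named for pole, rfc2, prim2, rrm2, dhfr and chaf1a, so these are not analysed here. Just outside the filter, gins1 reached log2 4 on 2 arrays (mean 3.73) and cdt1 on 0 (mean 2.98). Just inside it, cdc45 reached log2 4 on 9 arrays (mean 3.82), tk1 and gins3 on 15 each, gmnn on 17, and gins2 and orc1 on 18 each. The other 27 genes reached it on 22 to 24 arrays.

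A cell copies its genome once per division. The origin recognition complex, with cdc6 and cdt1, loads the replicative helicase onto DNA before S phase, and cdc45 and the GINS complex then switch it on. At the fork, primase and polymerase alpha start each strand, polymerases delta and epsilon extend it on the PCNA clamp that replication factor C loads, replication protein A (RPA) covers bare single strands, and FEN1 and ligase 1 seal the fragments of the lagging strand. The regrowing zebrafish fin forms a blastema, a mass of dividing cells under a wound epidermis, in which these genes are known to be active.

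Total RNA came from the caudal fin of wild-type zebrafish (Danio rerio), taken uncut (0 h) and 12, 24 and 48 h after amputation, in a metabolic memory arm and a control arm with 3 arrays for each arm and time. Memory fish received 350 mg/kg streptozocin, which destroys insulin-producing beta cells, in 5 injections ending on day 19, and then lived 60 days without drug. Control fish were injected with citrate buffer per the protocol, while the series' design text calls them untreated. Every fish of both arms had been anaesthetised with 2-phenoxyethanol for injection, which the protocol places in the upper, dorsal portion of the fin. Metabolic memory is the persistence of effects of past high blood glucose. Blood glucose, age and sex are not given in the sources used here. The protocol names 15 fins and a triplicate for each time, without saying whether replicates came from separate fish, so p-values cover the spread among these samples alone, which may be technical.

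Values are log2 signals, given in the order of replicates 1, 2 and 3, and contrasts between groups are log2 differences with their standard errors (±, n = 3 arrays a group). A gene was called at an adjusted p under 0.05 in limma's test over 10140 probe sets. Over all probe sets except the array controls, tested or not, replicate arrays had correlations of 0.989 to 0.998. The fin's own markers were present, with 10 of 10 epidermal, 5 of 7 osteoblast and 5 of 8 fin fold and patterning genes measured. The 9 hybridisation controls averaged log2 9.65 to 9.75 in the groups at 0 and 12 h and 9.24 to 9.38 in those at 24 and 48 h. Where 24 or 48 h is set against 0 or 12 h, that shift in hybridisation and the time cannot be told apart. The number of arrays limits the precision, and in bulk samples fewer cells of a type and less RNA per cell cannot be told apart.

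At 12 h after the cut, 23 of the 33 genes had less transcript in memory fins than in control fins, and none had more (20.7% of all tested probe sets were called lower and 15.5% higher). The median log2 difference of the 33 genes was -0.76, against -0.02 over all tested probe sets, and 32 of the 33 differences were below 0. Genes of every role were among the 23, led by rfc1 of the clamp loader (-1.62 ± 0.13), pola2 of polymerase alpha (-1.31 ± 0.19) and pold2 of polymerase delta (-1.29 ± 0.16). The 23 calls comprised 3 of 8 origin licensing genes, 3 of 3 helicase activators, 3 of 3 primase and polymerase alpha genes, 2 of 4 delta and epsilon genes, 4 of 5 clamp and loader genes, 2 of 3 RPA genes, 2 of 2 Okazaki fragment genes, 2 of 2 chromatin genes and 2 of 3 nucleotide supply genes. At 0 h, 22 of the 33 differences were above 0 and 7 genes were called higher in memory fins (3.62% of all probe sets), of which 0 were called when only the 6 arrays at 0 h entered the fit. At 24 and 48 h no gene was called between the arms.

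**Figure D1:**
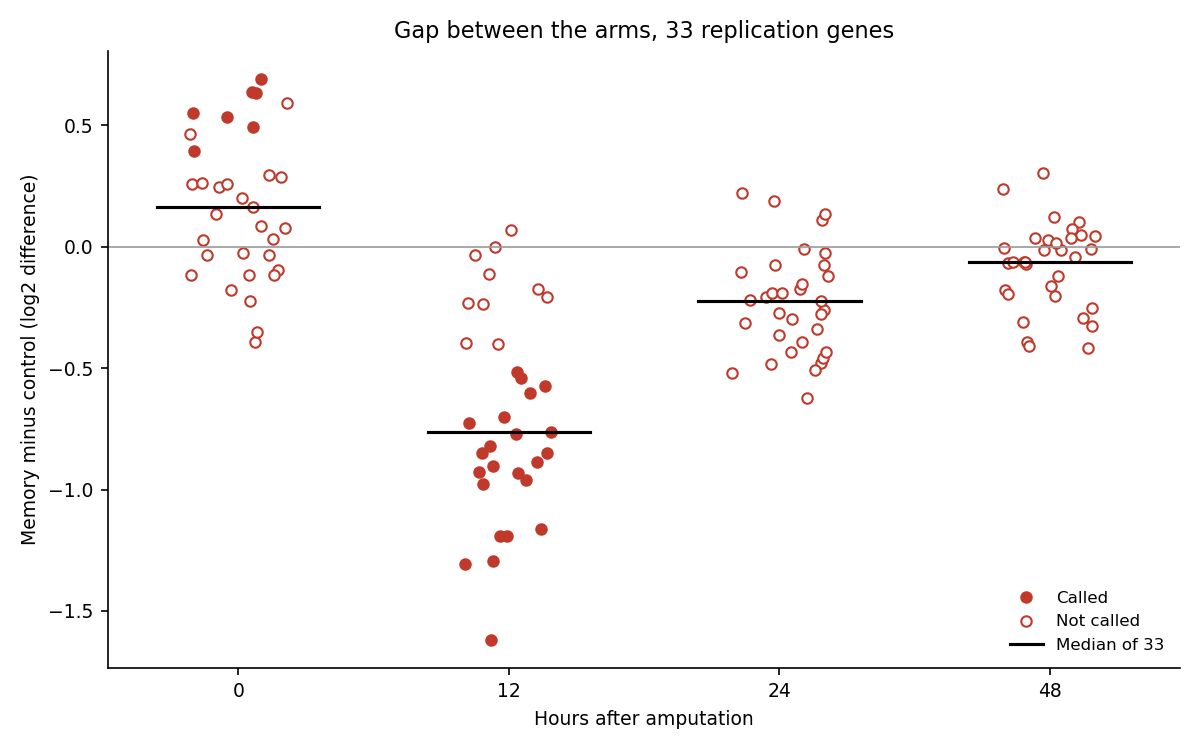
Log2 difference of memory minus control fins (y axis) for each of the 33 genes at 0, 12, 24 and 48 h after amputation (x axis). Filled points were called at an adjusted p under 0.05, open points were not, and the bar is the median of the 33. The medians were 0.16 at 0 h, -0.76 at 12 h, -0.22 at 24 h and -0.06 at 48 h, and the filled points lie above 0 at 0 h and below 0 at 12 h.

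Against memory fins at 0 h, memory fins at 12 h had 14 of the 33 genes higher, 5 lower and 14 not called (35.6% and 34.0% of all probe sets were higher and lower), with a median difference of 0.14. Control fins at 12 h had 26 higher, 2 lower and 5 not called against control fins at 0 h (36.0% and 32.5%), with a median of 1.11. In memory fins the rise came by 24 h, with 28 higher and 2 lower against 0 h (36.7% and 31.5%) and a median of 0.82. Between 12 and 24 h alone, 22 genes rose in memory fins and 0 fell (22.2% and 17.5%), whereas in control fins 7 rose and 1 fell (11.2% and 8.89%). At 48 h against 0 h, 28 genes were higher and 1 lower in memory fins (37.8% and 32.0%, median 0.85), and 27 were higher and 1 lower in control fins (37.5% and 32.5%, median 1.14). Control fins at 24 h had 29 higher and 1 lower against 0 h (36.8% and 31.6%, median 1.25). From 24 to 48 h, 2 genes rose and 1 fell in memory fins (14.4% and 13.1%), and 0 rose and 4 fell in control fins (15.0% and 15.9%).

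In memory fins the lowest of the 4 group means stood at 0 h for 22 genes and at 12 h for 11. In control fins it stood at 0 h for 29 genes, at 12 h for 3 and at 48 h for 1. The highest group mean stood at 0 h for 2 genes, at 24 h for 13 and at 48 h for 18 in memory fins, and at 0 h for 1, at 12 h for 9, at 24 h for 12 and at 48 h for 11 in control fins. At 12 h, 13 genes were called higher than at 0 h in both arms, among them 5 of the 6 origin recognition genes, all 3 RPA genes, fen1 and gins2. Another 10 were higher in control fins and not called in memory fins: gins3, lig1, orc4, pcna, pola1, pola2, pold2, pold3, prim1 and tyms. Opposite calls were found for rfc1, rfc3 and slbp, lower in memory fins and higher in control fins. For cdc6 the rise was called in memory fins (0.60 ± 0.17) and not in control fins (0.24 ± 0.17). The difference between these changes of cdc6 was not called (0.36 ± 0.24, 95% interval -0.14 to 0.86, adjusted p = 0.298). Both arms were lower for rrm1 and tk1, and cdc45, gmnn, pole2 and rfc5 were called in neither arm. The shares of all probe sets with these joint patterns were not computed, so these counts describe the members alone. The median over all probe sets, including the 5362 not tested, was 4.83 in memory fins at 12 h and 5.03 in memory fins at 0 h. Over the tested probe sets alone, the median log2 difference between these groups was 0.02. With arrays centred on their medians, 17 genes were higher and 3 lower in memory fins at 12 h than at 0 h. Centring ended the calls of rfc3 and slbp and added pold3 (0.46, adjusted p = 0.00542), lig1 (0.30, adjusted p = 0.0365) and rfc5 (0.22, adjusted p = 0.0433) as higher. Of the 19 calls in memory fins at 12 h, 12 held in every alternative in which the gene was tested. Leaving out 1 array ended the call of orc2 (memory replicate 1 at 0 h, adjusted p = 0.0686). It ended that of orc5 with replicate 1 or 2 at 0 h, or 2 or 3 at 12 h (0.0548 to 0.144). It ended that of rfc4 with replicate 1 or 2 at 0 h, or 1 or 3 at 12 h (0.0567 to 0.126), and that of chaf1b with replicate 1 at 0 h, or 1 or 2 at 12 h (0.0655 to 0.131). The same was found for gins2 and slbp, described with their roles.

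**Figure D2:**
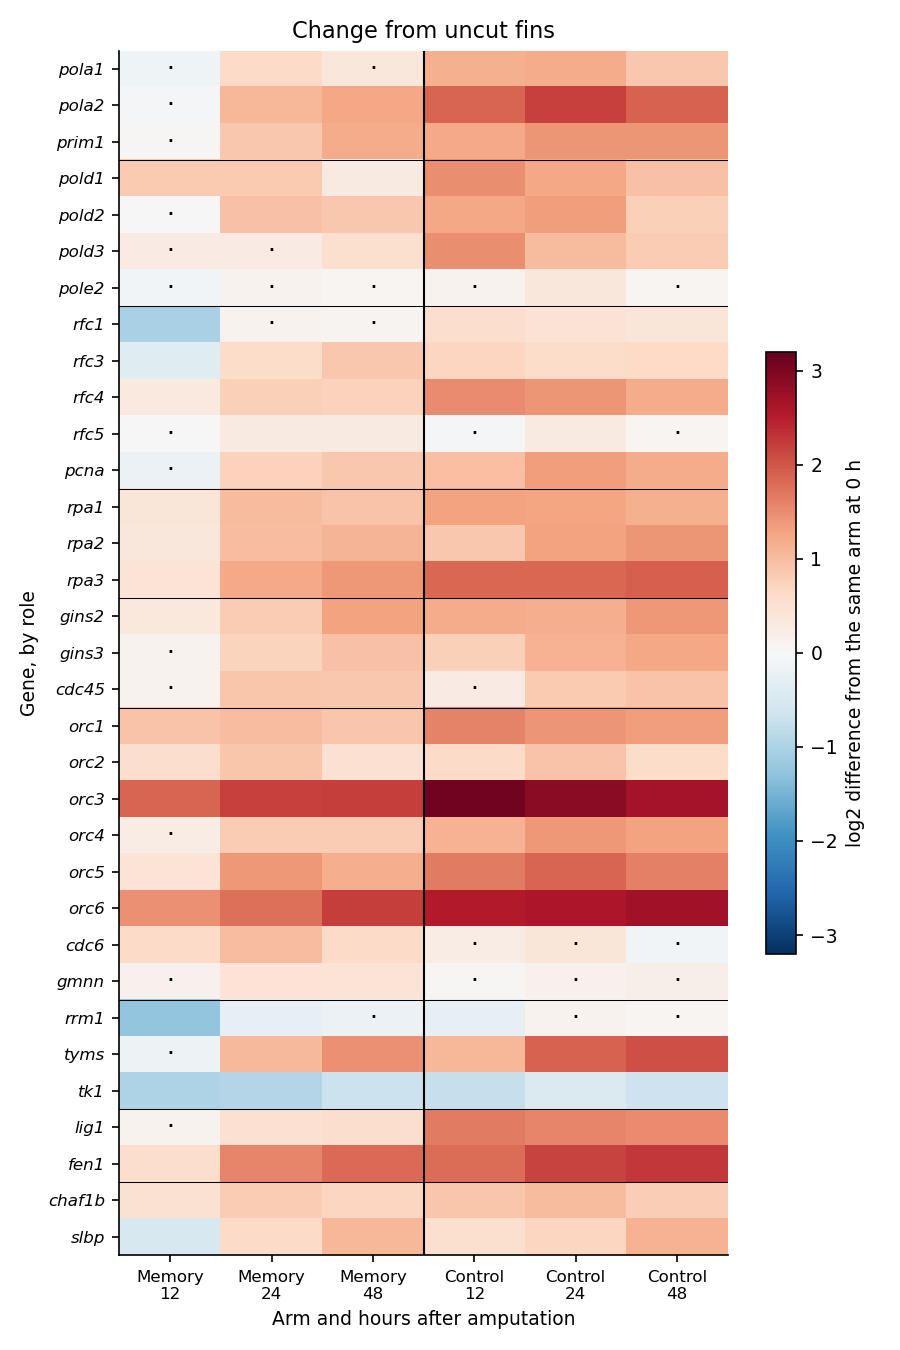
Log2 difference from 0 h of the same arm (colour scale, red higher and blue lower) for the 33 genes (rows, by role) at 12, 24 and 48 h in memory fins (left) and control fins (right); a dot marks a gene not called. At 12 h, 14 genes were not called and 5 were lower in memory fins, against 5 not called and 2 lower in control fins.

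Of 8 origin licensing genes, 6 were higher at 12 h than at 0 h in memory fins (35.6% of all probe sets) and 6 in control fins (36.0%). Lower in memory than in control fins at 12 h were 3 of the 8 (20.7% of all probe sets). The widest course among them belonged to orc3, a subunit of the origin recognition complex that marks the sites where replication starts. In memory fins orc3 read 5.04, 5.10 and 4.70 at 0 h, then 6.76, 6.80 and 6.85 at 12 h, 7.14, 7.02 and 7.22 at 24 h, and finally 7.19, 7.18 and 7.08 at 48 h. In control fins it read 4.62, 4.35 and 3.80 at 0 h, then 7.36, 7.17 and 7.49 at 12 h, 7.13, 7.17 and 7.11 at 24 h, and finally 6.74, 6.96 and 7.03 at 48 h. Both arms therefore gained orc3 by 12 h, by 1.85 ± 0.15 in memory fins and 3.08 ± 0.15 in control fins, and all 3 memory arrays at 12 h lay below all 3 control arrays (-0.54 ± 0.15, adjusted p = 0.00771). For orc5, another subunit, memory fins at 12 h read 4.28, 4.92 and 4.92 and control fins 5.68, 5.48 and 5.75 (-0.93 ± 0.18, adjusted p = 0.000407). Signals of orc6, the smallest of the complex, were 6.08, 5.99 and 5.07 in memory and 6.97, 6.21 and 6.62 in control fins at 12 h (-0.88 ± 0.24, adjusted p = 0.00714). The arrays of the arms did not overlap for either subunit, but the third memory array was the low one for orc6, and without it the difference was -0.56 with an adjusted p of 0.0658.

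Among the remaining subunits, orc4 was not called between the arms at 12 h, with 6.01, 6.22 and 5.76 in memory fins and 6.31, 6.11 and 6.77 in control fins (-0.40 ± 0.19, 95% interval -0.81 to 0.00, adjusted p = 0.115). It had stood at 5.72, 5.29 and 6.25 in memory fins and 5.04, 5.44 and 5.39 in control fins at 0 h. The intervals for orc1 (-0.40 ± 0.20, 95% interval -0.81 to 0.02, adjusted p = 0.127) and orc2 (0.07 ± 0.17, 95% interval -0.29 to 0.43, adjusted p = 0.795) also reached 0. Neither cdc6, which loads the helicase with cdt1 (-0.03 ± 0.17, 95% interval -0.38 to 0.32, adjusted p = 0.906), nor gmnn, the inhibitor of cdt1, was called at 12 h. The narrowest course was that of gmnn: memory fins read 4.01, 3.69 and 3.95 at 0 h, then 4.08, 3.97 and 4.02 at 12 h, 4.11, 4.22 and 4.61 at 24 h, and finally 4.02, 4.13 and 4.80 at 48 h. Control fins read 4.06, 3.97 and 3.96 at 0 h, then 4.25, 3.94 and 3.90 at 12 h, 4.29, 4.02 and 4.05 at 24 h, and finally 4.40, 4.03 and 4.15 at 48 h. The arms overlapped at every time for gmnn, and its difference at 12 h had an interval of -0.35 to 0.35. For orc1 and gmnn part of the arrays lay under the filter's log2 4, at 0 h all of those of orc1.

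All 3 measured helicase activators of the member list were lower in memory fins at 12 h (20.7% of all probe sets). The GINS complex and cdc45 bind the loaded helicase and turn it into the moving engine of the fork. The GINS gene gins1 was below the filter, and gins4 was counted with the accessory genes. Means of gins4 rose in both arms, from 4.67 at 0 h to 5.62 at 12 h in memory fins and from 4.73 to 5.85 in control fins. In memory fins gins2 read 3.99, 3.59 and 3.66 at 0 h, then 4.08, 4.13 and 4.06 at 12 h, 4.49, 4.55 and 4.66 at 24 h, and finally 5.12, 4.89 and 5.10 at 48 h. In control fins gins2 read 3.76, 3.49 and 3.74 at 0 h, then 4.86, 4.79 and 4.94 at 12 h, 4.97, 4.84 and 4.67 at 24 h, and finally 5.07, 4.79 and 5.30 at 48 h. Thus gins2 stood above 0 h in both arms at 12 h, by 0.34 ± 0.13 in memory fins and 1.20 ± 0.13 in control fins, and the arms' arrays did not overlap at 12 h (-0.77 ± 0.13, adjusted p = 8.84e-05). The call against 0 h in memory fins was lost without the second memory array at 0 h (0.26, adjusted p = 0.111), the third at 0 h (0.30, adjusted p = 0.0779) or the second at 12 h (0.32, adjusted p = 0.062). Its partner gins3 read 3.86, 3.72 and 3.85 in memory and 4.72, 4.43 and 4.57 in control fins at 12 h (-0.76 ± 0.16, adjusted p = 0.00091), again without overlap. For cdc45, memory fins read 3.29, 3.07 and 3.12 at 0 h, then 3.04, 3.29 and 3.46 at 12 h, 3.87, 3.94 and 4.30 at 24 h, and finally 4.17, 3.98 and 3.88 at 48 h. Control fins read 3.63, 3.65 and 3.26 at 0 h, then 3.93, 3.37 and 4.03 at 12 h, 4.51, 4.01 and 4.53 at 24 h, and finally 4.58, 4.21 and 4.47 at 48 h. The arms overlapped for cdc45 at 12 h, where 1 control array was low (-0.52 ± 0.18, adjusted p = 0.0293), and the call was lost with arrays centred on their median (-0.40, adjusted p = 0.0832) and without any of 4 of the 6 arrays in turn. Mean cdc45 was also lower in memory fins at 0 h (3.16 against 3.51), 24 h (4.04 against 4.35) and 48 h (4.01 against 4.42). The difference between the arms' changes of cdc45 over the first 12 h was not called (-0.16). All but 1 of the cdc45 values at 0 and 12 h lay under log2 4, as did those of gins2 and gins3 at 0 h and of gins3 in memory fins at 12 h.

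Polymerase alpha and primase, which lay down the short starter that other polymerases extend, rose by 12 h in control fins and were not called in memory fins with all arrays in the fit. The B subunit of the polymerase, pola2, had the widest course of the role. In memory fins pola2 read 5.16, 4.97 and 5.14 at 0 h, then 5.33, 5.12 and 4.70 at 12 h, 6.16, 6.07 and 6.22 at 24 h, and finally 6.46, 6.17 and 6.36 at 48 h. In control fins pola2 read 4.77, 3.83 and 4.89 at 0 h, then 6.43, 6.27 and 6.37 at 12 h, 6.69, 6.65 and 6.67 at 24 h, and finally 6.29, 6.44 and 6.46 at 48 h. The memory arrays at 12 h overlapped those at 0 h while the control arrays at 12 h all stood above theirs (-0.04 ± 0.19 in memory and 1.86 ± 0.19 in control fins), and the arms did not overlap at 12 h (-1.31 ± 0.19, adjusted p = 2.4e-05). The catalytic subunit pola1 had the narrowest course. Memory fins read 3.59, 4.61 and 5.17 at 0 h, then 4.38, 4.26 and 4.30 at 12 h, 5.25, 4.92 and 5.01 at 24 h, and finally 4.95, 4.72 and 4.81 at 48 h for pola1. Control fins read 4.30, 4.11 and 4.72 at 0 h, then 5.26, 5.32 and 5.94 at 12 h, 5.63, 5.62 and 5.45 at 24 h, and finally 5.41, 5.17 and 5.15 at 48 h. One memory array at 0 h was low for pola1, and the 12 h arrays of the arms did not overlap (-1.19 ± 0.26, adjusted p = 0.00114). The rise of pola1 in memory fins by 24 h (0.60 ± 0.26, adjusted p = 0.0435) became 0.17 with an adjusted p of 0.457 without that array. Without it, pola1 was also called lower at 12 h than at 0 h in memory fins (-0.58, adjusted p = 0.0149), against -0.14 ± 0.26, adjusted p = 0.634 with all arrays. For prim1, the catalytic primase subunit that makes the RNA primer, memory fins read 5.66, 5.68 and 5.78 and control fins 6.61, 6.54 and 6.68 at 12 h, without overlap (-0.90 ± 0.15, adjusted p = 0.00013).

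Polymerase delta copies the lagging strand and polymerase epsilon the leading strand, and their subunits did not share a pattern. The catalytic and proofreading subunit pold1 rose in both arms. In memory fins pold1 read 5.60, 5.62 and 5.84 at 0 h, then 6.45, 6.54 and 6.60 at 12 h, 6.57, 6.52 and 6.51 at 24 h, and finally 5.95, 5.89 and 6.09 at 48 h. In control fins pold1 read 5.21, 5.18 and 5.06 at 0 h, then 6.49, 6.72 and 6.72 at 12 h, 6.37, 6.24 and 6.58 at 24 h, and finally 6.29, 5.99 and 6.01 at 48 h. By 12 h pold1 had gained 0.84 ± 0.11 in memory fins and 1.49 ± 0.11 in control fins, and the arms overlapped at 12 h (-0.11 ± 0.11, 95% interval -0.33 to 0.11, adjusted p = 0.44). A second pold1 probe set, under the filter, did not show rises of this size. Its means at 0 and 12 h were 3.61 and 3.56 in memory fins and 3.32 and 3.48 in control fins. The accessory subunits pold2 and pold3 were apart at 12 h. For pold2, memory fins read 4.91, 5.19 and 4.95 and control fins 6.18, 6.26 and 6.48 (-1.29 ± 0.16, adjusted p = 4.99e-06). For pold3, memory fins read 5.59, 6.18 and 5.93 and control fins 6.99, 6.86 and 6.77 (-0.98 ± 0.14, adjusted p = 1.81e-05). No memory array of either subunit reached a control array. The narrowest course was that of pole2, an accessory subunit of polymerase epsilon. Memory fins read 4.36, 4.50 and 4.53 at 0 h, then 4.45, 4.37 and 4.28 at 12 h, 4.53, 4.42 and 4.77 at 24 h, and finally 4.47, 4.34 and 4.76 at 48 h for pole2. Control fins read 4.52, 4.53 and 4.43 at 0 h, then 4.59, 4.53 and 4.69 at 12 h, 4.72, 4.65 and 5.17 at 24 h, and finally 4.48, 4.59 and 4.63 at 48 h. All 3 memory arrays of pole2 at 12 h lay below the control arrays, by a margin that was not called (-0.23 ± 0.13, 95% interval -0.50 to 0.03, adjusted p = 0.164).

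**Figure D3:**
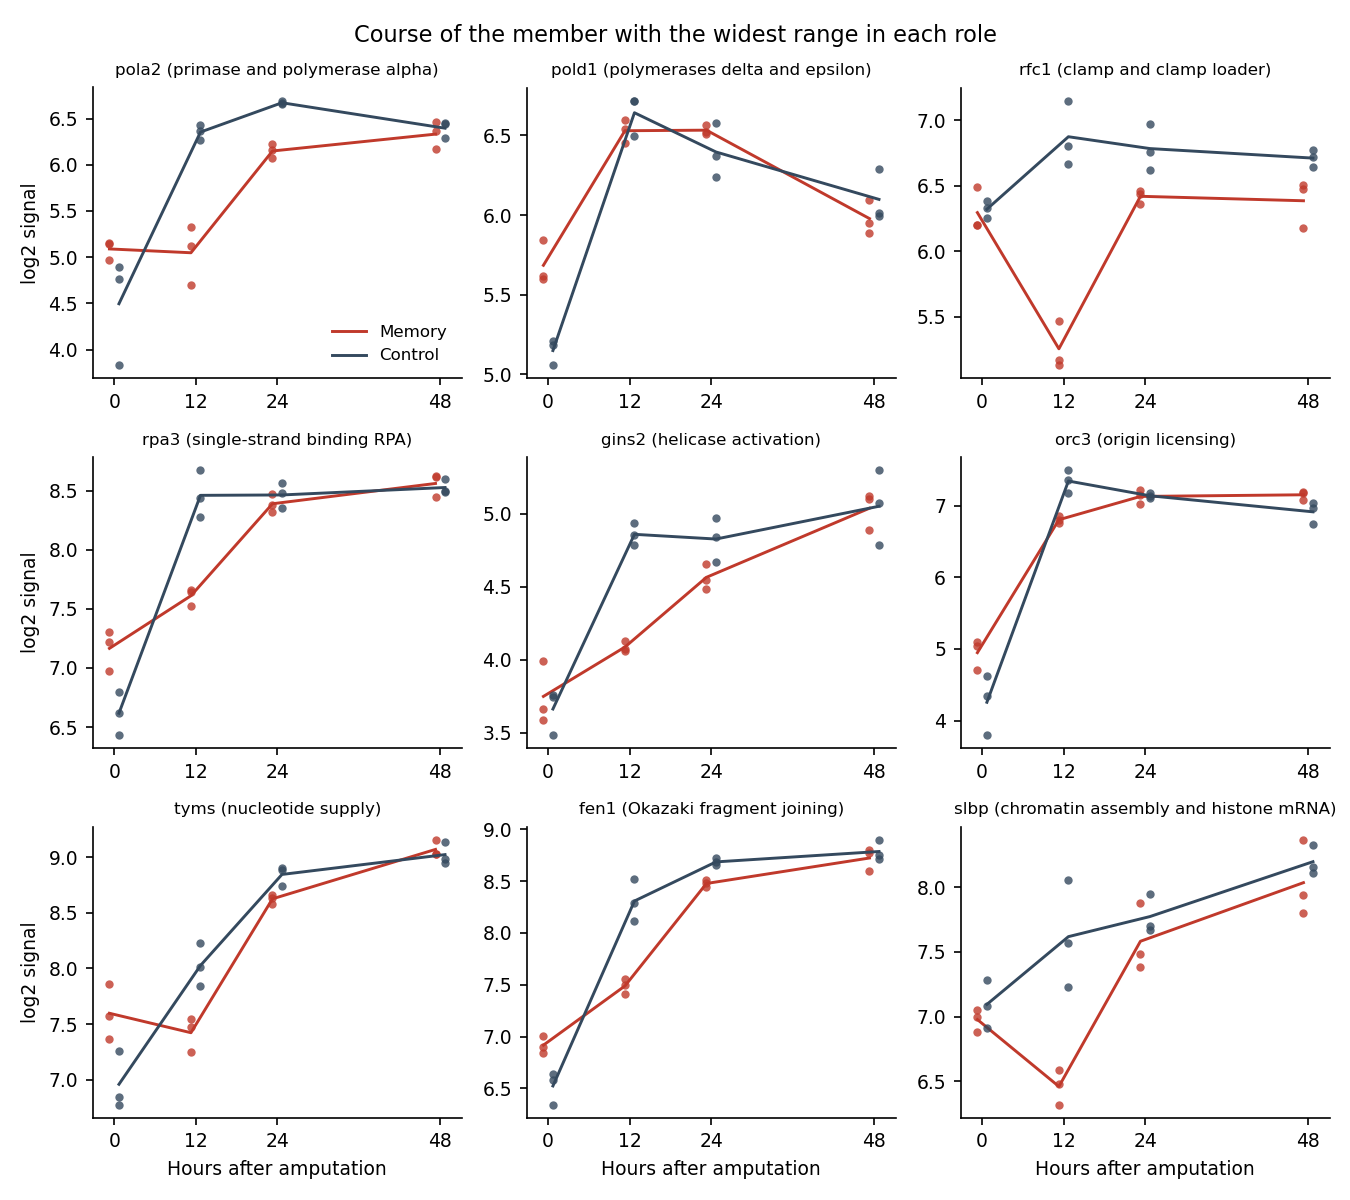
Log2 signal (y axis of each panel) against hours after amputation (x axis) for the member of each role whose 8 group means spread most; points are single arrays, lines join the means of 3 arrays, memory fins in red and control fins in dark grey, set apart sideways for view. At 12 h the 3 memory arrays lie below the 3 control arrays in every panel except pold1.

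The clamp and its loader included the largest difference between the arms. The large subunit rfc1 of replication factor C, which opens the PCNA ring and places it on DNA, fell in memory fins at 12 h and rose in control fins. In memory fins rfc1 read 6.20, 6.20 and 6.49 at 0 h, then 5.17, 5.47 and 5.13 at 12 h, 6.46, 6.36 and 6.43 at 24 h, and finally 6.50, 6.17 and 6.48 at 48 h. In control fins rfc1 read 6.33, 6.25 and 6.38 at 0 h, then 7.15, 6.67 and 6.81 at 12 h, 6.97, 6.62 and 6.76 at 24 h, and finally 6.77, 6.72 and 6.64 at 48 h. The 3 memory arrays at 12 h were the lowest of all 24 (-1.04 ± 0.13 against memory fins at 0 h and -1.62 ± 0.13, adjusted p = 1.93e-08 against control fins at 12 h), and by 24 h rfc1 was back within its 0 h range (0.12 ± 0.13, 95% interval -0.15 to 0.39, adjusted p = 0.407). The small subunit rfc3 read 5.75, 6.10 and 5.96 at 0 h, 5.43, 5.68 and 5.53 at 12 h and 6.54, 6.46 and 6.59 at 24 h in memory fins. It read 6.04, 5.93 and 6.19 at 0 h, 6.88, 6.60 and 6.75 at 12 h and 6.82, 6.52 and 6.56 at 24 h in control fins. Memory arrays of rfc3 at 12 h lay below every other array of the same arm and all control arrays at 12 h (-1.19 ± 0.11, adjusted p = 1.59e-07).

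The other loader subunits differed less. For rfc4, memory fins read 6.12, 5.84 and 6.08 and control fins 6.45, 6.57 and 7.12 at 12 h (-0.70 ± 0.13, adjusted p = 0.000315). Its second probe set, with group means of 5.06 in memory fins and 5.59 in control fins at 12 h, went the same way. The narrowest course was that of rfc5. Memory fins read 6.05, 6.20 and 6.17 at 0 h, then 6.17, 6.00 and 6.30 at 12 h, 6.43, 6.46 and 6.40 at 24 h, and finally 6.46, 6.38 and 6.45 at 48 h for rfc5. Control fins read 6.42, 6.25 and 6.41 at 0 h, then 6.30, 6.36 and 6.34 at 12 h, 6.64, 6.65 and 6.67 at 24 h, and finally 6.43, 6.27 and 6.56 at 48 h. The arms overlapped for rfc5 at 12 h (-0.17 ± 0.09, 95% interval -0.36 to 0.01, adjusted p = 0.132). The clamp itself, pcna, a ring that tethers the polymerases and a common marker of dividing cells, rose later in memory fins. In memory fins pcna read 10.61, 10.83 and 10.76 at 0 h, then 10.58, 10.57 and 10.50 at 12 h, 11.50, 11.49 and 11.41 at 24 h, and finally 11.71, 11.47 and 11.65 at 48 h. In control fins pcna read 10.56, 10.19 and 10.56 at 0 h, then 11.43, 11.32 and 11.44 at 12 h, 11.65, 11.89 and 11.76 at 24 h, and finally 11.61, 11.56 and 11.68 at 48 h. The memory arrays of pcna at 12 h lay just below those at 0 h, which was not called (-0.18 ± 0.10, 95% interval -0.40 to 0.03, adjusted p = 0.111). The control arrays at 12 h were all above theirs (0.96 ± 0.10, adjusted p = 3.77e-08), and the arms did not overlap at 12 h (-0.85 ± 0.10, adjusted p = 2.58e-06).

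All 3 RPA subunits rose in both arms by 12 h (35.6% of all probe sets in memory and 36.0% in control fins), with smaller values in memory fins. The smallest subunit, rpa3, had the widest course. In memory fins rpa3 read 6.97, 7.22 and 7.30 at 0 h, then 7.66, 7.65 and 7.52 at 12 h, 8.32, 8.47 and 8.38 at 24 h, and finally 8.62, 8.45 and 8.63 at 48 h. In control fins rpa3 read 6.80, 6.43 and 6.62 at 0 h, then 8.44, 8.27 and 8.67 at 12 h, 8.56, 8.35 and 8.48 at 24 h, and finally 8.49, 8.60 and 8.49 at 48 h. At 12 h rpa3 was up by 0.45 ± 0.11 in memory fins and by 1.84 ± 0.11 in control fins, and the arms' arrays were apart (-0.85 ± 0.11, adjusted p = 8.71e-06). The main DNA-binding subunit rpa1 had the narrowest course. Memory fins read 7.98, 8.10 and 8.23 at 0 h, then 8.47, 8.47 and 8.53 at 12 h, 9.09, 9.09 and 9.19 at 24 h, and finally 8.98, 8.97 and 9.10 at 48 h for rpa1. Control fins read 7.88, 7.89 and 8.05 at 0 h, then 9.28, 8.99 and 9.38 at 12 h, 9.20, 9.19 and 9.20 at 24 h, and finally 9.06, 9.05 and 9.14 at 48 h. The arms were again apart at 12 h (-0.72 ± 0.09, adjusted p = 6.1e-06), and at 24 h the difference was not called (-0.07 ± 0.09, 95% interval -0.27 to 0.12, adjusted p = 0.754). For rpa2, memory fins read 8.14, 8.20 and 8.20 and control fins 8.29, 8.34 and 8.62 at 12 h, which did not overlap and were not called (-0.24 ± 0.10, 95% interval -0.44 to -0.03, adjusted p = 0.0688).

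Both genes of Okazaki fragment joining were lower in memory fins at 12 h (20.7% of all probe sets). The flap endonuclease fen1 trims the displaced end of each lagging-strand fragment. In memory fins fen1 read 6.84, 7.01 and 6.90 at 0 h, then 7.55, 7.41 and 7.50 at 12 h, 8.48, 8.51 and 8.44 at 24 h, and finally 8.77, 8.59 and 8.80 at 48 h. In control fins fen1 read 6.64, 6.34 and 6.59 at 0 h, then 8.29, 8.12 and 8.52 at 12 h, 8.72, 8.65 and 8.68 at 24 h, and finally 8.71, 8.75 and 8.89 at 48 h. Both arms rose for fen1, by 0.57 ± 0.10 in memory fins and 1.78 ± 0.10 in control fins at 12 h, without overlap between the arms (-0.82 ± 0.10, adjusted p = 3.98e-06). DNA ligase 1, lig1, closes the remaining nick. In memory fins lig1 read 5.81, 5.66 and 5.65 at 0 h, then 5.72, 5.68 and 6.03 at 12 h, 6.14, 6.11 and 6.35 at 24 h, and finally 6.36, 6.15 and 6.29 at 48 h. In control fins lig1 read 5.04, 4.90 and 5.28 at 0 h, then 6.49, 6.78 and 6.94 at 12 h, 6.60, 6.65 and 6.64 at 24 h, and finally 6.69, 6.58 and 6.47 at 48 h. The range of lig1 was narrow in memory fins, where 12 h was not called against 0 h (0.10 ± 0.12, 95% interval -0.15 to 0.36, adjusted p = 0.473) and 48 h was up by 0.56 ± 0.12, against a rise of 1.66 ± 0.12 in control fins by 12 h (-0.93 ± 0.12, adjusted p = 7.68e-06 between the arms).

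Of the chromatin genes, slbp binds the stem-loop of replication-dependent histone mRNAs, and chaf1b belongs to the assembly factor that places new histones behind the fork. In memory fins slbp read 7.05, 6.88 and 7.0 at 0 h, then 6.47, 6.58 and 6.32 at 12 h, 7.39, 7.48 and 7.88 at 24 h, and finally 7.80, 7.94 and 8.37 at 48 h. In control fins slbp read 7.08, 6.91 and 7.28 at 0 h, then 8.06, 7.57 and 7.23 at 12 h, 7.95, 7.67 and 7.70 at 24 h, and finally 8.16, 8.11 and 8.33 at 48 h. The memory arrays of slbp at 12 h were the lowest of all 24, and the arms did not overlap (-1.16 ± 0.18, adjusted p = 4.17e-05). Within the arms slbp was lower at 12 h than at 0 h in memory fins (-0.52 ± 0.18, adjusted p = 0.0137), a call lost with centred arrays (-0.32, adjusted p = 0.0989) and without the third memory array at 12 h (-0.45, adjusted p = 0.0561). It was higher in control fins (0.52 ± 0.18, adjusted p = 0.013), a call lost without the first control array at 12 h (0.30, adjusted p = 0.120). For chaf1b, memory fins read 4.08, 4.40 and 4.49 at 0 h, then 4.85, 4.91 and 4.69 at 12 h, 5.40, 4.82 and 5.15 at 24 h, and finally 4.67, 5.18 and 5.15 at 48 h. Control fins read 4.61, 4.61 and 4.28 at 0 h, then 5.51, 4.84 and 5.82 at 12 h, 5.56, 5.50 and 5.48 at 24 h, and finally 5.30, 5.30 and 5.29 at 48 h. One control array of chaf1b at 12 h lay among the memory arrays, and the difference (-0.57 ± 0.19, adjusted p = 0.0256) was not called with centred arrays (-0.46, adjusted p = 0.0674) or without the third control array at 12 h (-0.36, adjusted p = 0.157).

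The nucleotide supply genes moved in different directions after the cut. Thymidylate synthase, tyms, makes the thymine nucleotide by the de novo route. In memory fins tyms read 7.36, 7.57 and 7.86 at 0 h, then 7.25, 7.54 and 7.48 at 12 h, 8.58, 8.64 and 8.66 at 24 h, and finally 9.15, 9.02 and 9.03 at 48 h. In control fins tyms read 7.26, 6.78 and 6.84 at 0 h, then 8.01, 7.84 and 8.22 at 12 h, 8.74, 8.90 and 8.88 at 24 h, and finally 8.95, 9.14 and 8.98 at 48 h. The 12 h arrays of tyms in memory fins overlapped those at 0 h (-0.17 ± 0.13, 95% interval -0.45 to 0.10, adjusted p = 0.251), control fins were up by 1.07 ± 0.13, and the arms were apart at 12 h (-0.60 ± 0.13, adjusted p = 0.00137). The large subunit of ribonucleotide reductase, rrm1, which turns ribonucleotides into deoxyribonucleotides, went down. In memory fins rrm1 read 8.20, 8.26 and 8.42 at 0 h, then 7.09, 7.26 and 6.76 at 12 h, 7.91, 8.10 and 8.10 at 24 h, and finally 8.12, 8.07 and 8.14 at 48 h. In control fins rrm1 read 8.33, 8.20 and 8.27 at 0 h, then 8.04, 7.88 and 8.06 at 12 h, 8.27, 8.55 and 8.30 at 24 h, and finally 8.23, 8.30 and 8.42 at 48 h. The fall of rrm1 at 12 h was -1.26 ± 0.11, adjusted p = 3.15e-09 in memory fins and -0.27 ± 0.11, adjusted p = 0.0398 in control fins, the control one lost with centred arrays (-0.23, adjusted p = 0.0807), and the arms did not overlap at 12 h (-0.96 ± 0.11, adjusted p = 2.12e-06).

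Thymidine kinase tk1 salvages thymidine and had the narrowest course of the nucleotide genes. Memory fins read 4.80, 4.82 and 4.70 at 0 h, then 3.88, 3.75 and 3.76 at 12 h, 3.98, 3.70 and 3.80 at 24 h, and finally 4.33, 4.05 and 3.88 at 48 h for tk1. Control fins read 4.75, 4.29 and 5.19 at 0 h, then 4.01, 3.76 and 4.24 at 12 h, 4.20, 4.60 and 4.06 at 24 h, and finally 4.20, 4.17 and 3.90 at 48 h. Both arms were lower than 0 h at 12 h (-0.98 ± 0.18 in memory and -0.74 ± 0.18 in control fins) and at 48 h (-0.69 ± 0.18 in memory and -0.65 ± 0.18 in control fins). The arms overlapped for tk1 at 12 h (-0.21 ± 0.18, 95% interval -0.58 to 0.17, adjusted p = 0.408), and 9 of its 24 values lay under log2 4. A second tk1 probe set, under the filter, did not show falls of this size by 12 h. Its means at 0 and 12 h were 3.24 and 3.14 in memory fins and 3.19 and 3.34 in control fins.

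**Figure D4:**
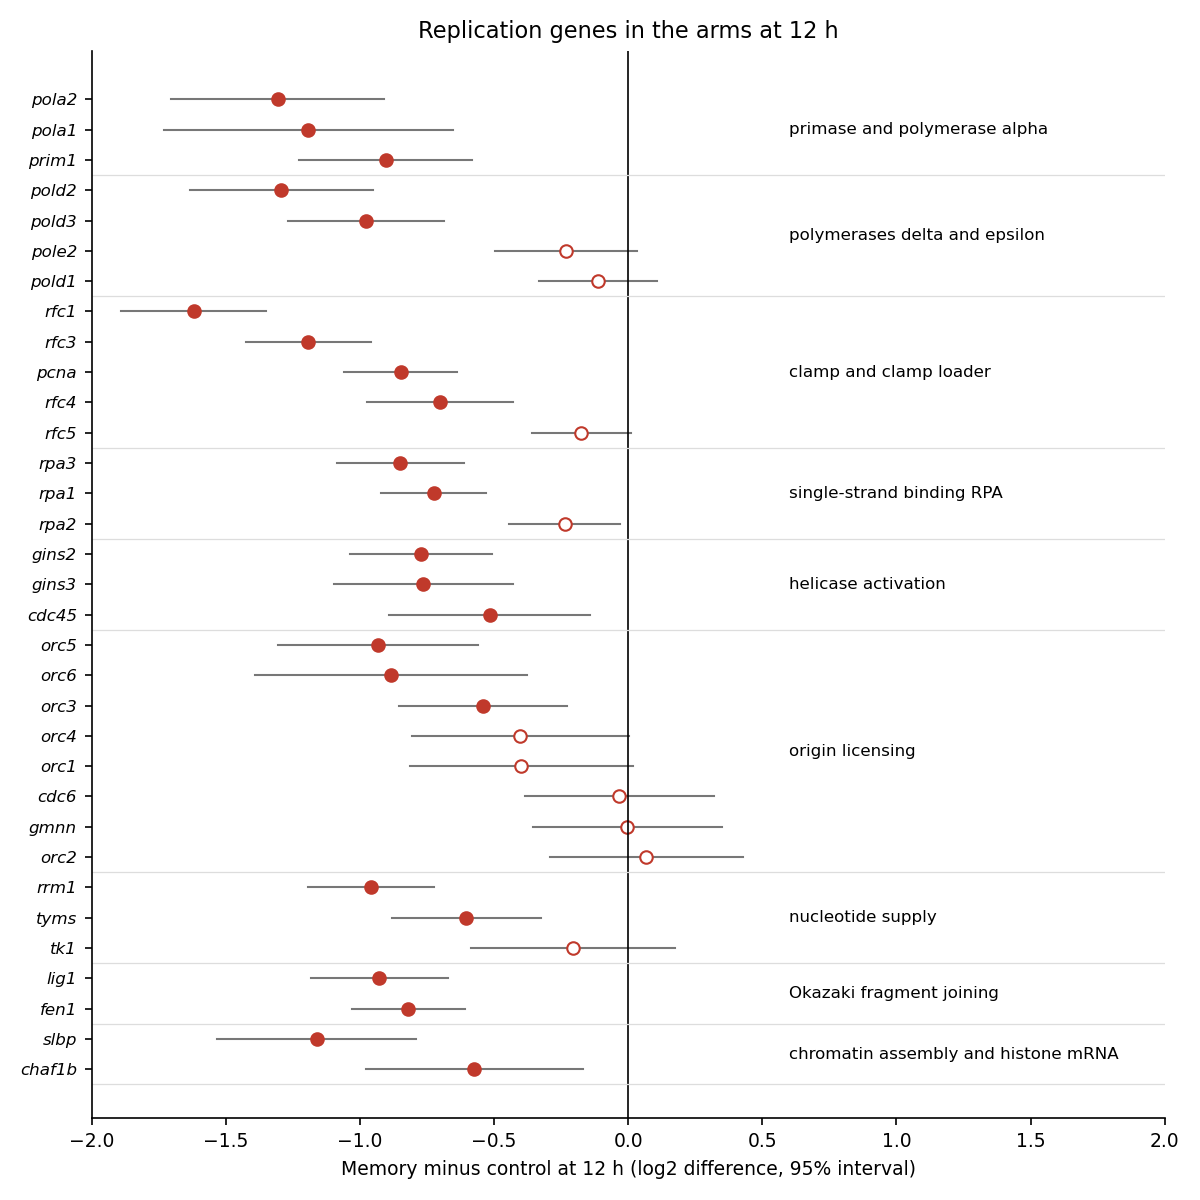
Log2 difference of memory minus control fins at 12 h (x axis, point) with its 95% interval (bar) for the 33 genes, by role; filled points were called. Points run from -1.62 for rfc1 to 0.07 for orc2, and 23 of 33 are filled, all below 0.

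At 12 h the arms' arrays did not overlap for 23 of the 33 genes (21 of those called, with rpa2 and pole2), against 22.7% of all probe sets. This count uses the same arrays as the calls and is no separate support for them. The call of 20 of the 23 held in every alternative in which the gene was tested, the exceptions being orc6, cdc45 and chaf1b. The median over all probe sets, including the 5362 not tested, was 4.83 in memory fins and 4.95 in control fins at 12 h, a difference of -0.11. With arrays centred on their medians, 21 genes were called. Over the tested probe sets alone, the median log2 difference was -0.02.

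In uncut fins at 0 h, 7 of the 33 genes were higher in memory fins and 0 lower (3.62% and 1.90% of all probe sets), with a median difference of 0.16. They were orc3 (0.69 ± 0.15, adjusted p = 0.00882), tyms (0.64 ± 0.13, adjusted p = 0.00742), lig1 (0.63 ± 0.12, adjusted p = 0.00442), rpa3 (0.55 ± 0.11, adjusted p = 0.00685), pold1 (0.54 ± 0.11, adjusted p = 0.00517), rfc4 (0.49 ± 0.13, adjusted p = 0.0314) and fen1 (0.39 ± 0.10, adjusted p = 0.0254). For each of the 7, the memory arrays at 0 h all lay above the control arrays. The calls rest on these same arrays, so this is no separate support. Of the 33 genes, 10 had all memory arrays above and 1 all below, and the share over all probe sets is not given here. For rfc4, memory fins read 5.72, 5.58 and 5.78 and control fins 5.25, 5.29 and 5.07. None of the 7 was called when only the 6 arrays at 0 h entered the fit, where adjusted p-values ran from 0.0686 for lig1 to 0.152 for fen1 and orc3. The other 26 were not called, among them pola2 (0.59 ± 0.19, 95% interval 0.20 to 0.99, adjusted p = 0.0715) and pcna (0.30 ± 0.10, 95% interval 0.09 to 0.51, adjusted p = 0.092), whose memory arrays at 0 h also all lay above the control arrays.

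At 24 h, 0 of the 33 genes were called between the arms (1.48% and 1.90% of all probe sets were higher and lower), while 29 differences were below 0. The median was -0.22, against -0.01 over all tested probe sets. All 3 memory arrays lay below all 3 control arrays for 20 of the 33 genes at 24 h, against 15.4% of all probe sets, and the reverse held for 0. The widest gaps were those of orc6 (-0.62 ± 0.24, 95% interval -1.13 to -0.12, adjusted p = 0.167), pola2 (-0.52 ± 0.19, 95% interval -0.92 to -0.12, adjusted p = 0.137) and pola1 (-0.51 ± 0.26, 95% interval -1.04 to 0.03, adjusted p = 0.307). For lig1 the memory arrays at 24 h all lay below the control arrays (-0.43 ± 0.12, 95% interval -0.69 to -0.18, adjusted p = 0.0551), and lig1 was called with the replicate number as a block (adjusted p = 0.0387). At 48 h, 0 genes were called (2.75% and 2.94%), and the median was -0.06, against 0.02 over all tested probe sets. For pola1 the memory arrays at 48 h lay below the control arrays (-0.42 ± 0.26, 95% interval -0.96 to 0.12, adjusted p = 0.373), as they did for rfc1 (-0.33 ± 0.13, 95% interval -0.60 to -0.06, adjusted p = 0.145). Signals of gins3 at 48 h were 4.45, 4.42 and 5.09 in memory fins and 5.09, 5.20 and 4.85 in control fins (-0.39 ± 0.16, 95% interval -0.73 to -0.06, adjusted p = 0.155). Without the third memory array at 48 h, the high one, gins3 was lower in memory fins (-0.61, adjusted p = 0.0331).

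The difference between the arms' changes was tested directly. The change over the first 12 h was smaller or more negative in memory fins for 24 of the 33 genes and larger for 0 (14.4% and 9.08% of all probe sets), with a median difference of -1.04. It was largest for pola2 (-1.90 ± 0.27, adjusted p = 6.45e-05), rfc1 (-1.59 ± 0.18, adjusted p = 7.09e-06) and lig1 (-1.56 ± 0.17, adjusted p = 5.14e-06). Of the 24, 3 were not called between the arms at 12 h itself: orc4 (-0.86 ± 0.27, adjusted p = 0.0276), rpa2 (-0.50 ± 0.14, adjusted p = 0.0144) and pold1 (-0.65 ± 0.15, adjusted p = 0.004). Higher means in memory than in control fins at 0 h enter the differences of these 3 genes. Those means were 5.75 and 5.29 for orc4, 7.82 and 7.56 for rpa2, and 5.69 and 5.15 for pold1. Conversely, cdc45 (-0.16) and chaf1b (-0.39) were called between the arms at 12 h and not in this difference of changes. The call of 19 of the 24 held in every alternative in which the gene was tested. For rpa2 it was lost with centred arrays (-0.34, adjusted p = 0.104). A fit to the 4 groups of the contrast alone ended it for rpa2 (adjusted p = 0.0653) and pola1 (adjusted p = 0.0814). Leaving out 1 array ended the call of orc4 for 4 of 12 arrays (memory replicate 3 and control replicate 1 at 0 h, replicate 3 of both arms at 12 h, adjusted p = 0.0723 to 0.0818). It did so for orc6 with memory replicate 3 and control replicate 2 at 0 h, and with memory replicate 3 and control replicate 1 at 12 h (0.068 to 0.082). For gins3, 9 of the 12 arrays did so (0.0511 to 0.0843). These comparisons share the 0 and 12 h arrays with those above. Over 0 to 24 h, 6 genes had a smaller change in memory fins and 0 a larger one (1.66% and 0.848%): lig1 (-1.07 ± 0.17, adjusted p = 0.00412), pola2, tyms, rpa3, fen1 and pcna. Over 0 to 48 h it was smaller for lig1 (-0.95 ± 0.17, adjusted p = 0.00625) and pold1 (-0.66 ± 0.15, adjusted p = 0.0176) and larger for 0 (2.35% and 2.03%). Each of these genes had a higher mean in memory than in control fins at 0 h, which enters these differences. For rpa3 the means were 7.17 and 6.62 at 0 h, then 8.39 and 8.46 at 24 h. For lig1 they were 5.71 and 5.07, then 6.20 and 6.63. Leaving out 1 array ended the 0 to 24 h call of rpa3 for 14 arrays, and of fen1 and pola2 for 7 each. It ended that of pcna for 6 and of tyms for 1, and the 0 to 48 h call of pold1 for 2.

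From 12 to 24 h the change was larger in memory fins for 10 genes and smaller for 0 (9.49% and 6.88%). They were rfc1 (1.25 ± 0.18, adjusted p = 0.000149), rfc3 (1.09 ± 0.16, adjusted p = 0.000141), slbp, pold2, rpa3, rpa1, rrm1, fen1, pcna and rfc4. Of these calls 8 held in every alternative in which the gene was tested, the exceptions being rfc4 and rrm1. The call of rfc4 (adjusted p = 0.0488) was lost without any of 21 of the 24 arrays in turn (0.0507 to 0.125). For pold2, memory fins had gone to 5.72, 5.95 and 6.26 at 24 h and control fins to 6.50, 6.33 and 6.41. For rfc4, memory fins read 6.48, 6.44 and 6.43 and control fins 6.55, 6.71 and 6.55 at 24 h. From 24 to 48 h no gene was called for a difference between the arms in its change (0 of 33, with 0.0197% of probe sets in each direction).

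Other genes of the pathway were read from 3 lists. Of 17 measured replication accessory genes (32 listed), 7 were higher (41.2%, against 35.6% of all probe sets) and 1 lower in memory fins at 12 h against 0 h, and 14 were higher (82.4%, against 36.0%) and 0 lower in control fins. Between the arms at 12 h, 8 were lower in memory fins (47.1%, against 20.7%) and 0 higher (median -0.44): rnaseh2b of RNase H2, which removes RNA from DNA (-1.73 ± 0.10, adjusted p = 5.47e-10), the histone chaperone nasp (-1.13 ± 0.11), rnaseh2a (-0.75 ± 0.14) and cdca7a (-0.72 ± 0.23) were the 4 largest. At 0 h, 4 were higher in memory fins and 0 lower (3.62% and 1.90% of all probe sets). They were the maintenance DNA methyltransferase dnmt1 (0.83 ± 0.20), its partner uhrf1 (0.62 ± 0.14), mcmbp (0.55 ± 0.13) and the histone chaperone ssrp1a (0.52 ± 0.11). At 24 h, 1 was called, nasp, lower in memory fins (-0.40 ± 0.11), where 1.90% of all probe sets were lower and 1.48% higher. At 48 h 0 of 17 were called (2.94% lower and 2.75% higher).

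Of 22 measured nucleotide synthesis genes outside the member list (34 listed), 14 were higher and 2 lower in memory fins at 12 h against 0 h (63.6% and 9.09%, against 35.6% and 34.0% of all probe sets). In control fins 18 were higher and 3 lower (81.8% and 13.6%, against 36.0% and 32.5%). Between the arms at 12 h, 6 were lower and 2 higher in memory fins (27.3% and 9.09%, near the 20.7% and 15.5% of all probe sets), with a median of -0.02. The 4 largest were dhodh of pyrimidine synthesis (-0.85 ± 0.16), the dUTPase gene dut (-0.67 ± 0.13), the mitochondrial serine hydroxymethyltransferase gene shmt2 (-0.62 ± 0.13) and ppat of purine synthesis (-0.59 ± 0.14). At 0 h, uck2a of pyrimidine salvage (-1.39 ± 0.16) and mthfd2 of the mitochondrial folate pathway (-0.91 ± 0.16) were lower in memory fins, and impdh2 of guanine nucleotide synthesis (0.57 ± 0.11) was higher. At 24 h uck2b was lower (-0.61 ± 0.13) and at 48 h ctps1a, a CTP synthase gene, was higher in memory fins (0.44 ± 0.13).

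Regulators of the G1 to S step were called in both directions. In memory fins at 12 h, 3 were higher and 8 lower than at 0 h of 19 measured, with 30 listed (15.8% and 42.1%, against 35.6% and 34.0% of all probe sets). In control fins 7 were higher and 5 lower (36.8% and 26.3%, near the 36.0% and 32.5% of all probe sets). Between the arms at 12 h, 8 were lower and 1 higher in memory fins (42.1% and 5.26%, against 20.7% and 15.5%), with a median of -0.38. The cyclin gene ccna2 (-1.21 ± 0.19), tfdp1a, which encodes a partner of E2F factors (-1.20 ± 0.13), skp2 of a ubiquitin ligase (-1.01 ± 0.23) and mybl2b (-0.68 ± 0.19) were the 4 largest, and the CDK inhibitor gene cdkn1bb was the one that was higher (0.36 ± 0.13). Against 0 h, tfdp1a was -0.62 ± 0.13 in memory fins and 0.63 ± 0.13 in control fins at 12 h. At 0 h tfdp2 was lower in memory fins (-0.66 ± 0.15). At 24 h 0 of 19 were called (1.48% of all probe sets were higher and 1.90% lower), and at 48 h the cyclin gene ccne1 was higher (0.59 ± 0.15).

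Markers of cell types in the fin were read beside the 12 h result. For scale, 15.5% of all tested probe sets had a higher call at that time and 20.7% a lower one. Beside these shares, the single calls among leukocyte markers (11.1% higher) and osteoblast markers (20.0% lower) do not stand out. Of 10 epidermal markers, 3 were higher and 0 lower in memory fins at 12 h: agr1 (0.78 ± 0.17), tp63 (0.53 ± 0.13) and epcam (0.41 ± 0.09). The log2 of the summed signal of the 10 was 17.02 to 17.14 in memory fins and 16.97 to 17.03 in control fins. Sums here and below add linear signals, so they follow the genes of highest signal and can miss changes of weaker ones. Of 9 measured leukocyte markers (10 listed) 1 was higher and 0 lower, coro1a (0.39 ± 0.13), with summed signals of log2 12.53 to 12.70 in memory fins and 12.47 to 12.77 in control fins. Of 5 fin fold and patterning genes (8 listed) 3 were lower and 0 higher in memory fins, msx2b (-1.38 ± 0.30), hoxa13b (-0.98 ± 0.21) and msx1b (-0.54 ± 0.18), with summed signals of log2 8.71 to 9.16 in memory fins and 9.38 to 10.11 in control fins. Of 5 osteoblast markers (7 listed) spp1 was lower (-0.82 ± 0.16), with sums of 9.04 to 9.61 in memory fins and 9.31 to 9.43 in control fins. The 2 measured endothelial markers of 5 were higher, fli1 (0.45 ± 0.15) and kdrl (0.39 ± 0.10), with sums of 7.67 to 7.75 in memory fins and 7.24 to 7.42 in control fins. Of 3 pigment cell markers (7 listed) sox10 was higher (0.40 ± 0.14), with sums of 5.75 to 6.24 in memory fins and 5.43 to 6.11 in control fins. Both sox10 means at 12 h lay under the filter's log2 4 (3.67 in memory and 3.27 in control fins), which limits this call. The single measured marker of skeletal muscle (7 listed), erythrocytes (6 listed) and Schwann cells (3 listed) was not called. Of 7 lymphocyte markers listed, rag1 was below the filter. For lck, zap70, cd4-1, cd8a, il2rga and ighm no probe set was named, so lymphocytes were hardly assayed. The part of these genes in the result was not tested.

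At 0 h, 3 of 9 leukocyte markers were higher in memory fins, the granule genes mpx (1.56 ± 0.26) and lyz (1.17 ± 0.20) and lcp1 (0.54 ± 0.11), and 0 were lower. Over all probe sets the shares at 0 h were 3.62% higher and 1.90% lower. The summed signal of the 9 leukocyte markers was log2 14.38 to 14.54 in memory fins and 14.33 to 14.49 in control fins. That sum follows cd74a, with means of 14.32 in memory and 14.35 in control fins. It cannot show the differences of mpx (5.38 and 3.82) and lyz (7.91 and 6.75). Of the epidermal markers krt94 was lower (-0.52 ± 0.14), with sums of 16.58 to 16.62 in memory fins and 16.59 to 16.68 in control fins, and of the pigment cell markers mitfa was higher (0.51 ± 0.14), with sums of 7.87 to 7.96 in memory fins and 7.37 to 7.81 in control fins. The part of these genes in the 7 calls at 0 h was not tested. As a measure of RNA quality, the log2 difference between 3′ and 5′ probe sets of GAPDH averaged 1.28 in memory fins and 1.24 in control fins at 12 h, and 1.27 in memory fins and 1.35 in control fins at 0 h. The same difference for acta1 at 12 h was 0.66, 0.89 and 0.39 in memory fins and 0.74, 0.68 and 0.67 in control fins. The part of this unevenness among the memory arrays in the calls was not tested.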

How the data were processed

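The deposited log2 signals of 24 Affymetrix zebrafish arrays came from the authors' use of GCRMA, for which the labels name Partek as the program (per the submitters' processing notes). This method removes background by a model of the probes' bases, brings the arrays to a common distribution and joins the probes of a set. Versions are not given in the sources used here. Groups came from the labels of each sample. From 15617 probe sets without the 115 array controls, 10140 with log2 4 or more on at least 3 arrays were tested and 5362 were not. Symbols came from the platform annotation, updated through gene numbers. Of the tested probe sets 7594 carried 1 symbol, for 6451 genes. With limma 3.58.1 (eBayes, R 4.3.3), all 24 arrays entered a model with a mean for each of 8 groups and 19 contrasts, Benjamini-Hochberg adjustment over all tested probe sets and a threshold of 0.05. The script was tested on simulated data.

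The members, their roles, the further gene lists and the markers were chosen with earlier results of these data known. Values of single arrays are given for the members with the widest and the narrowest range of group means in each role and for those called between the arms or in a difference of changes. Other genes are the up to 4 largest called ones of each list and comparison. Alternatives were no filter, a filter at log2 6, eBayes with trend and robust estimation, arrays centred on their median, a further quantile normalisation, the replicate number as a block, only the groups compared, the mean of a gene's probe sets, and leaving out each array. No sequences are printed. Outside the marker sums, which weight genes by their signal, GCRMA signals of different genes were not compared in level.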

Additional observations from a re-analysis of the deposited data

Results flagged for a closer look

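A test of the difference between the arms' changes (limma, adjusted p under 0.05) set 42 results apart, all among those counted in the report. Over the first 12 h, memory minus control was -1.90 for pola2, -1.27 for pola1 and -1.17 for prim1, the polymerase alpha and primase genes. In the clamp loader it was -1.59 for rfc1, -1.19 for rfc4 and -1.08 for rfc3, and the clamp gene pcna had -1.14. Polymerase delta subunits had -1.26 for pold2, -1.22 for pold3 and -0.65 for pold1. Okazaki fragment genes had -1.56 for lig1 and -1.21 for fen1. The RPA genes had -1.40 for rpa3, -0.89 for rpa1 and -0.50 for rpa2. Origin licensing genes had -1.23 for orc3, -1.22 for orc5, -1.09 for orc6 and -0.86 for orc4. Helicase activators had -0.86 for gins2 and -0.67 for gins3. The remaining genes were tyms at -1.24, slbp at -1.04 and rrm1 at -0.99.

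Over 0 to 24 h the difference of the changes was -1.12 for pola2, -1.07 for lig1, -0.86 for tyms, -0.62 for rpa3, -0.60 for fen1 and -0.59 for pcna, and only that of lig1 was called under every alternative. Over 0 to 48 h it was -0.95 for lig1 and -0.66 for pold1. From 12 to 24 h memory fins gained more than control fins, by 1.25 for rfc1, 1.09 for rfc3, 0.97 for slbp, 0.86 for pold2, 0.78 for rpa3, 0.65 for rpa1, 0.62 for rrm1, 0.61 for fen1, 0.55 for pcna and 0.55 for rfc4. Of these, rfc4 and rrm1 were not called under every alternative, and leaving out any of 21 arrays in turn ended the call of rfc4. All differences with 0 h share the same 0 h arrays. On these, the genes named over 0 to 24 h and 0 to 48 h had higher means in memory fins.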

How the results depend on the processing

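Of 273 calls among 627 results for single genes, none reversed under any of 32 alternatives. Of 19836 recomputed results, 19443 kept their side of the threshold, 270 lost a call and 123 gained one. The filter at log2 6 left 21 members. Of these, 12 were called in memory fins at 12 h, 19 at 24 h and 19 at 48 h against 0 h. Over all probe sets passing that filter, 76.0%, 74.9% and 75.8% were called either way. Between the arms at 24 h, 2 members were called, against 4.725% of all probe sets. With only the groups compared in the fit, 6 were called from 24 to 48 h in memory fins (31.6% of all probe sets). From 12 to 24 h in control fins 2 were called (6.805%). Between the arms that fit called 0 at 0 h (0.799%) and 1 (pola2) at 24 h (1.95%). Trend and robust estimation gave 2 from 24 to 48 h in control fins (31.0% of all probe sets). Centred arrays gave 3 for the difference of the changes over 0 to 24 h (2.30% of all probe sets).

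Deviations of same-numbered arrays from their group means had correlations of -0.225 to 0.370 (84 pairs, 19 over 0.1). All 3 pairs were over 0.1 in 2 of 28 pairs of groups, control fins at 12 h with those at 24 h (0.150 to 0.226) and at 48 h (0.154 to 0.370). The labels give no shared source, so numbers were not taken to pair samples in the other 26. For control fins at 24 h against 12 h the replicate block gave 8 calls, as without it, and changed none. With the replicate block, 1 gene (lig1) was called between the arms at 24 h and 13 in the difference of changes from 12 to 24 h, and the other counts stayed within 1.5 times. Leaving out each array in turn, counts against 0 h ran from 16 to 20 at 12 h, 27 to 30 at 24 h and 27 to 30 at 48 h in memory fins, and from 27 to 28, 28 to 31 and 27 to 28 in control fins. From 12 to 24 h they were 18 to 23 in memory fins and 4 to 8 in control fins (4 without control replicate 2 at 12 h, 5 without control replicate 2 at 24 h), and from 24 to 48 h 2 to 4 in memory fins and 1 to 4 in control fins. Between the arms they were 5 to 7 at 0 h, 21 to 23 at 12 h, 0 to 1 at 24 h and 0 to 1 at 48 h. For the differences of changes they were 21 to 25 over 0 to 12 h, 1 to 8 over 0 to 24 h (1 without control replicate 2 at 24 h), 1 to 4 over 0 to 48 h, 9 to 13 from 12 to 24 h and 0 to 0 from 24 to 48 h. Fewer members entered at the log2 6 filter; elsewhere the cause was not tested. Signals near log2 4 limit cdc45, gins2, gins3, gmnn, orc1 and tk1. They may also limit pole2, whose 24 values ran from 4.28 to 5.17.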
